A study of Mus musculus with 17 samples.

Results

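The urea cycle was examined through 8 genes, which were chosen by name: the enzymes Nags, Cps1, Otc, Ass1, Asl and Arg1 and the mitochondrial carriers Slc25a15 and Slc25a13. All 8 were listed in both gene tables, among 19151 genes under a high-fat diet (HFD) and 24233 under a Western-type diet (WD), of which 19032 were in both. The mice were WT or liver-specific NgBR knockouts (N-LKO) on a C57BL6 background, and each diet was given for 16 weeks after standard chow; WD is a high-fat diet with high cholesterol. RNA-seq covered 4 WT and 4 N-LKO livers under HFD, and 3 WT livers, 3 N-LKO livers and 3 tumors of N-LKO mice under WD. In N-LKO mice, Cre driven by the albumin promoter deletes a loxP-flanked NgBR (Nus1) allele in hepatocytes. The study names endothelial, stellate and Kupffer cells as examples of liver cells that express NgBR. Nus1 was not measured by cell type here. N-LKO mice came from crosses of albumin-Cre NgBR loxP/+ with NgBR loxP/+ mice, and the Cre and loxP alleles carried by the WT controls are not given in the sources used here. The study's methods describe male mice; age and sex are not in the labels, and whether tumors and livers came from the same mice is not given either.

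The urea cycle turns ammonia, which is toxic to the brain, into urea for excretion, and the complete cycle runs almost only in hepatocytes, mainly those around the portal vein. Its first steps lie in the mitochondrion, where ammonia and bicarbonate are joined to carbamoyl phosphate and then to ornithine, and its later steps lie in the cytosol, where aspartate brings in the second nitrogen and arginine is split into urea and ornithine. The hepatocytes nearest the central vein lack most of the cycle and take up remaining ammonia as glutamine.

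Library totals were 9096109 to 12215764 counts under HFD and 15494718 to 20200578 under WD, and the 8 genes held 0.284% to 0.603% of the counts of a library. The targeted gene Nus1 stood at 82.5 to 96.2 CPM (counts scaled to a common library size) in WT livers and 29.4 to 38.0 CPM in N-LKO livers under HFD, at 88.2 to 98.9 CPM in WT and 41.7 to 51.1 CPM in N-LKO livers under WD, and at 28.99 to 43.99 CPM in tumors. Hepatocyte markers were abundant in all 17 libraries, with a summed level of 43275 to 92474 CPM over 8 genes. Under WD, WT replicate 2 stood apart with the lowest TMM factor (the edgeR correction of library size), 0.806, and it had the highest level in the table for 7 of the 8 urea cycle genes. In tumors the summed level of 8 pericentral hepatocyte markers was 5217 CPM in replicate 1 but 425 CPM in replicate 2 and 549.5 CPM in replicate 3, against 8283 to 8680 CPM in N-LKO livers. Cholangiocyte markers, 6 genes, summed to 17.8 to 70.2 CPM in WT and 115.7 to 153 CPM in N-LKO livers under WD, to 195 to 524 CPM in tumors, and to 20.5 to 38.9 against 54.97 to 100.3 CPM under HFD; their part in the results was not tested. Spp1 made up most of these sums, and for tumor against N-LKO only Spp1 and Sox9 of the 6 had positive log2 differences, with a list median of -0.84. Replicates are called biological in the labels, with no mention of how the animals were assigned. In bulk RNA, fewer cells of a type and less RNA per cell cannot be told apart.

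On GRCm38 with GENCODE M21 the genes lie apart on 8 chromosomes: Nags at chr11:102145513-102149477, Cps1 at chr1:67123026-67231259, Otc at chrX:10252305-10321024, Ass1 at chr2:31470207-31520672, Asl at chr5:130011258-130029247, Arg1 at chr10:24915221-24927484, Slc25a15 at chr8:22375551-22398597 and Slc25a13 at chr6:6041218-6217173. Per kilobase of main transcript, Arg1, the arginase that releases urea, was the most abundant of the 8 under HFD, with 559 ± 119 CPM per kilobase (SD, n = 4) in WT liver. Ass1 followed with 309 ± 66.6 and Cps1 with 301 ± 44.6 CPM per kilobase, and these neighbours did not differ beyond their spread. Otc stood at 141 ± 13.0 CPM per kilobase, and Slc25a13, Slc25a15 and Asl lay close together at 84.2 ± 6.15, 76.9 ± 8.70 and 68.4 ± 11.8 CPM per kilobase. Nags, the enzyme that makes the cofactor without which Cps1 is inactive, was the least abundant at 13.9 ± 2.10 CPM per kilobase. Under WD the WT livers averaged 584 ± 213 CPM per kilobase for Cps1 and 495 ± 118 for Arg1 (SD, n = 3), which overlapped, while Nags was again last at 19.2 ± 6.05. N-LKO livers had 406 ± 60.5 for Cps1 and 349 ± 77.03 for Arg1, and tumors 400.6 ± 151 and 356 ± 116.4 CPM per kilobase, again with overlap. The diets were deposited as separate tables, so diet and table cannot be told apart and no level of one diet was tested against the other.

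**Figure D1:**
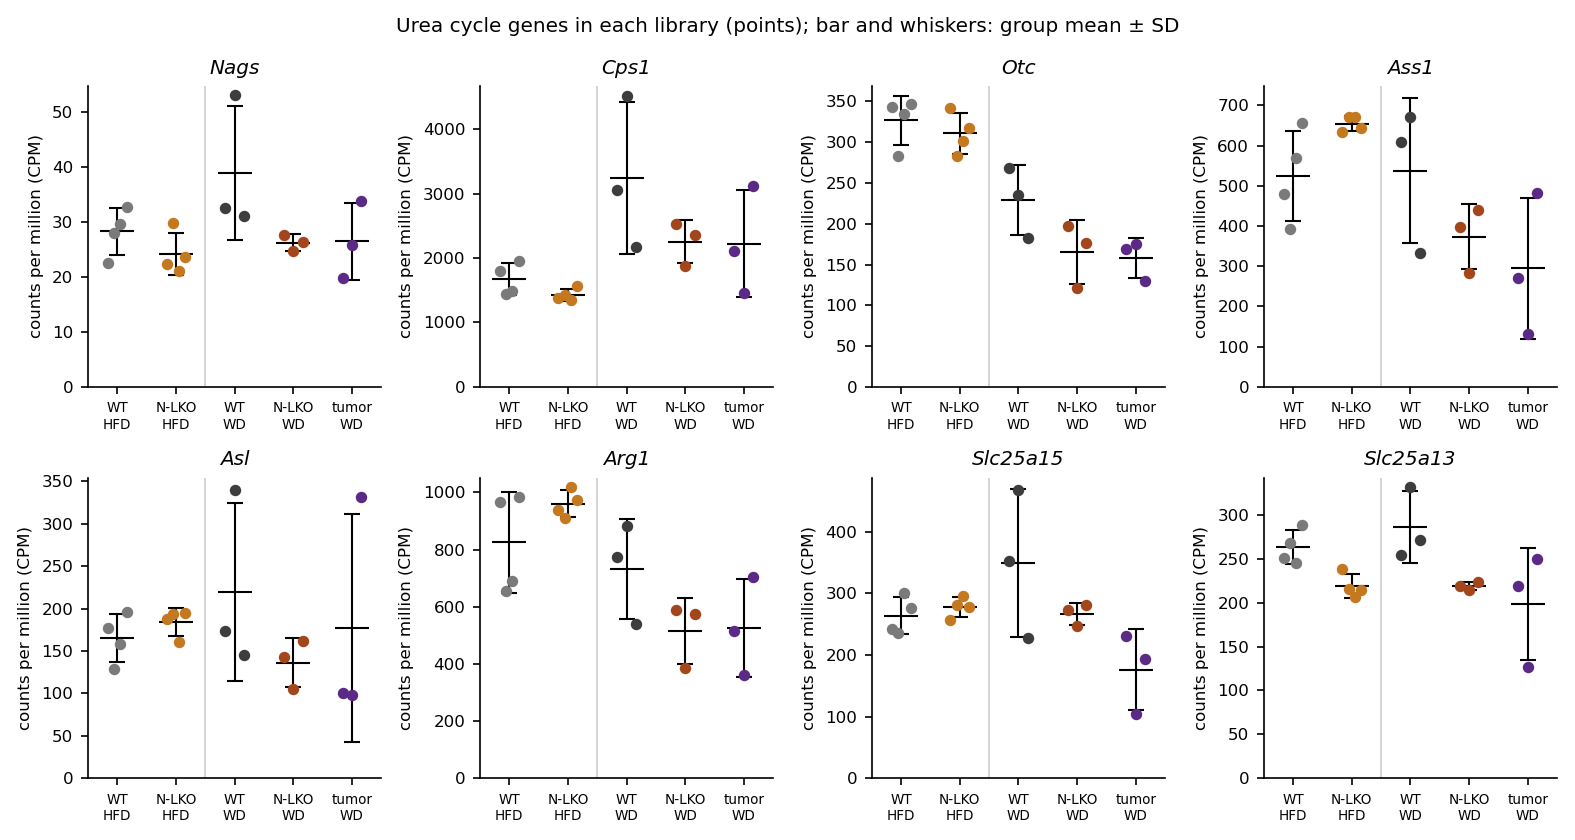
Level of each urea cycle gene in each library, in CPM on a linear axis from 0, for WT and N-LKO livers under HFD (left of the grey line) and WT livers, N-LKO livers and tumors under WD (right). Points are libraries, and the bar and whiskers are the group mean ± SD; WT replicate 2 is the highest WD library for 7 of the 8 genes, and Slc25a13 under HFD is the only gene of the HFD panels with all N-LKO livers below all WT livers.

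RefSeq promoter windows on GRCm38.p6 were at hand for 5 of the 8 genes: Otc, Ass1, Nags, Slc25a15 and Slc25a13. The bases before the start site are printed for the carriers Slc25a15 and Slc25a13, because they came closest to the threshold in a comparison below, and for Otc, because its level varied least with the other members under WD. Capitals mark matches, on either strand, to the TATAAA box, to the GC box with letters GGGCGG, to the cyclic AMP response core with letters TGACG, to the C/EBP motif with letters TTGCNNAA or to the HNF4 motif with letters CAAAGTCCA. These motifs do not overlap in the matches found.
Slc25a15, chr8:22398622-22398871, minus strand: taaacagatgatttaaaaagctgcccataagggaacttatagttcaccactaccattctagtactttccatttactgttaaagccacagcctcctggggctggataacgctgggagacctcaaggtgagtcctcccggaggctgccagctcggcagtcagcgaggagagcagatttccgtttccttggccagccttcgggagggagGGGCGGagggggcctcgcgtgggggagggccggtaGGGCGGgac
Slc25a13, chr6:6217174-6217423, minus strand: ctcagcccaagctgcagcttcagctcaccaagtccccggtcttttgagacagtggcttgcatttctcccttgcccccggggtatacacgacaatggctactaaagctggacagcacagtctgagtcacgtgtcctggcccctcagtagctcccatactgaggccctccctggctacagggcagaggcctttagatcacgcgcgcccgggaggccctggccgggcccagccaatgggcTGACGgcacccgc
Otc, chrX:10252055-10252304, plus strand: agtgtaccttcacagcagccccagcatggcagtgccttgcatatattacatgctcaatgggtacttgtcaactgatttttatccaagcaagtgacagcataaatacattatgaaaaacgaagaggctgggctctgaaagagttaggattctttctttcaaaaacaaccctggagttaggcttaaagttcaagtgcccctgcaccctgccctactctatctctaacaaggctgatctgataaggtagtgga
Counted back from the start site, the Slc25a15 window held GC boxes at bases -44 to -39 and -9 to -4, and the Slc25a13 window held TGACG at -13 to -9. The Otc window and the bases before the annotated Ass1 gene held none of the 5 motifs, and Nags held 2 GC boxes. Over 32851 mouse promoter windows of 250 bases, GGGCGG was found in 32.7%, TGACG in 17.8%, TATAAA in 12.4%, TTGCNNAA in 9.56% and CAAAGTCCA in 0.384%. A match describes the letters of the window and is not a measured binding site.

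Under HFD, loss of hepatic NgBR left no urea cycle gene past the threshold: 0 of 8 had an adjusted p under 0.05 with edgeR, against 4.84% of 13460 genes tested. At an unadjusted p under 0.05 there were 2 (Ass1 and Slc25a13), beside 3053 of all 13460 genes. DESeq2 called 1 member and limma-voom 0. The log2 differences were negative for the mitochondrial enzymes Nags, Cps1 and Otc and for Slc25a13, and positive for the cytosolic enzymes Ass1, Asl and Arg1 and for Slc25a15. Their median was -0.00030 on the log2 scale, against -0.0058 over all genes.

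Cps1, which makes carbamoyl phosphate and sets the entry of ammonia, stood at 1796, 1438, 1496 and 1960 CPM in WT livers and 1385, 1423, 1355 and 1563 CPM in N-LKO livers. The groups overlapped only through N-LKO replicate 4, and the log2 difference was -0.22 (95% interval -0.47 to 0.02, edgeR adjusted p = 0.265). Nags was at 22.6, 28.01, 29.7 and 32.8 CPM in WT livers and 22.3, 29.7, 21.1 and 23.6 CPM in the N-LKO livers, a log2 difference of -0.22 (edgeR adjusted p = 0.355). The antisense gene Gm11586 overlaps Nags, and the strand used in counting is not given, so counts of this low gene (194 to 361 in N-LKO livers) are uncertain. Otc, which joins carbamoyl phosphate to ornithine, was at 344, 283, 335 and 347 CPM in WT livers and 341, 283, 301 and 318 CPM in the N-LKO livers. Its ranges nearly coincided, with a log2 difference of -0.07 (95% interval -0.28 to 0.13, edgeR adjusted p = 0.690).

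Ass1, which joins citrulline and aspartate, had the largest positive difference of the 8 genes. It was at 479, 394, 569.5 and 655 CPM in WT livers and 635, 670.2, 670.4 and 644.5 CPM in the N-LKO livers, where it varied little. The highest WT liver lay inside the N-LKO range, and the log2 difference was 0.32 (95% interval 0.03 to 0.62, edgeR adjusted p = 0.183). Asl, which cleaves argininosuccinate to arginine and fumarate, averaged 165 ± 28.4 CPM across the WT livers, against 184 ± 16.3 CPM with NgBR deleted (SD, n = 4), a log2 difference of 0.16 (edgeR adjusted p = 0.480). Arg1 was at 967, 656, 692 and 985 CPM in WT livers and 939, 910.4, 1019 and 973 CPM in the N-LKO livers. WT livers fell into a high and a low pair while N-LKO livers stayed near the high pair, and the log2 difference was 0.22 (95% interval -0.08 to 0.52, edgeR adjusted p = 0.366). WT replicate 2 was the lowest HFD library for 5 of the 8 genes, and without it the log2 difference was 0.20 for Ass1, 0.12 for Arg1 and 0.05 for Asl.

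Slc25a13 encodes citrin, which carries aspartate out of the mitochondrion for the Ass1 step. It was at 251, 268, 245 and 288 CPM in WT livers and 238, 215.5, 206 and 215 CPM in the N-LKO livers, so all 4 N-LKO livers lay below all 4 WT livers. It was the only member so separated, and 7.4% of all genes tested had all N-LKO livers lower. The log2 difference was -0.27 (95% interval -0.45 to -0.08, edgeR adjusted p = 0.0866); DESeq2 gave an adjusted p of 0.0454, where 8.22% of genes passed. Slc25a15, the ornithine and citrulline exchanger, was at 242, 236, 299.9 and 276 CPM in WT livers and 256, 280.1, 296 and 277.5 CPM in the N-LKO livers, a log2 difference of 0.07 (edgeR adjusted p = 0.695).

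The balance among the members was also described, as a quantity chosen after its values were seen. Cps1 made up 39.1% to 42.0% of the counts of the 8 genes in WT livers and 33.6% to 37.1% in N-LKO livers under HFD, with no overlap. Under WD the shares overlapped, at 55.4% to 60.2% in WT and 55.6% to 57.9% in N-LKO livers. Main transcripts run from 1477 bases for Arg1 to 5555 bases for Cps1, and a per-library offset for transcript length and GC content reduced the number of genes called over the whole table from 652 to 210. With this offset the log2 difference was -0.12 for Cps1, 0.14 for Arg1 and 0.24 for Ass1, while it was -0.25 for Slc25a13 and -0.28 for Nags.

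**Figure D2:**
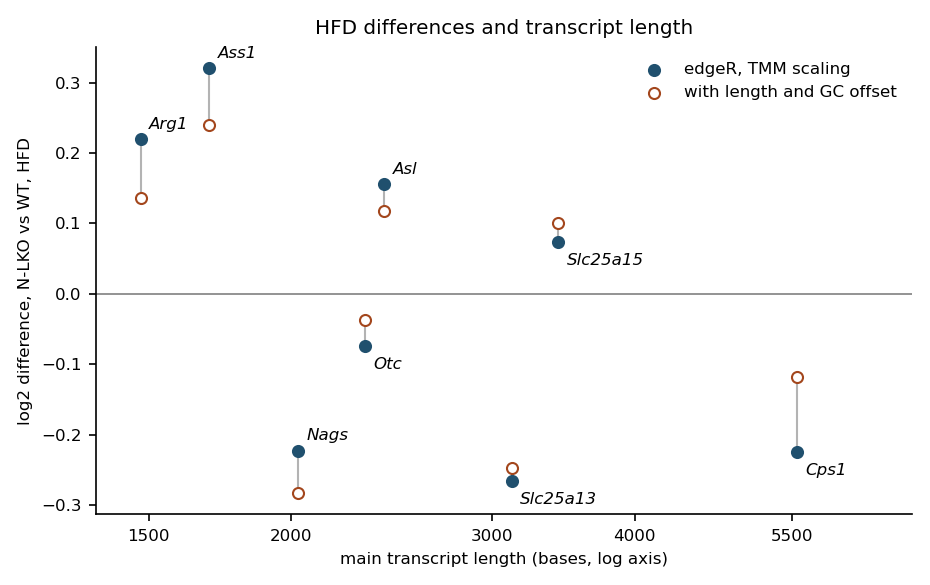
Log2 difference of N-LKO against WT liver under HFD (vertical axis) for each urea cycle gene by the length of its main transcript in bases (log axis). Filled points are edgeR values with TMM scaling and open points those with a length and GC offset; Cps1, the longest at 5555 bases, goes from -0.22 to -0.12 and Arg1, the shortest at 1477 bases, from 0.22 to 0.14.

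Under WD all 8 genes had lower mean levels in N-LKO than in WT liver, with a median log2 difference of -0.51 against 0.01 over all genes. None passed the threshold in edgeR, nor did any other gene (0% of 17829). The spread in this fit was estimated over all 9 WD libraries, tumors included. A fit of the 2 liver groups alone called 6 of 16867 genes, none of them a member. At an unadjusted p under 0.05, edgeR had 1 member (Nags) and 2212 genes in all, while DESeq2 called 0 members and 99 genes and limma-voom 0 of either. The estimates rested to a large part on WT replicate 2.

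Cps1 was at 3056, 4514 and 2169 CPM in WT livers and 2530, 1881 and 2357 CPM in N-LKO livers. WT replicate 3 lay within the N-LKO range, and the log2 difference was -0.53 (95% interval -1.25 to 0.20, edgeR adjusted p = 0.508). Nags was at 32.5, 53.0 and 31.1 CPM in WT livers and 27.7, 24.6 and 26.4 CPM in the N-LKO livers, all of them below the WT livers, with a log2 difference of -0.57 (95% interval -1.09 to -0.04, edgeR adjusted p = 0.386). Otc was at 268, 236 and 183 CPM in WT livers and 198, 121 and 176.1 CPM in the N-LKO livers, which overlapped, and the log2 difference was -0.47 (95% interval -0.95 to 0.01, edgeR adjusted p = 0.410). Unlike the other 7 genes, Otc was highest in WT replicate 1.

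The cytosolic enzymes, which had positive differences under HFD, had negative ones here. Ass1 was at 608, 673 and 332 CPM in WT livers and 397, 283 and 439 CPM in the N-LKO livers, a log2 difference of -0.53 (95% interval -1.46 to 0.40, edgeR adjusted p = 0.594). Asl was at 174, 339.5 and 145 CPM in WT livers and 142, 105 and 161.7 CPM in the N-LKO livers, a log2 difference of -0.69 (95% interval -1.75 to 0.37, edgeR adjusted p = 0.547). Arg1 was at 773, 881 and 539.98 CPM in WT livers and 588, 384 and 574 CPM in the N-LKO livers, a log2 difference of -0.50 (95% interval -1.13 to 0.12, edgeR adjusted p = 0.472). In each of these 3 genes WT replicate 3 was the lowest WT liver and lay inside the N-LKO range, and N-LKO replicate 2 was the lowest liver of all.

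Of the carriers, Slc25a13 was at 254, 332 and 271 CPM in WT livers and 218, 214 and 224 CPM in the N-LKO livers, a narrow N-LKO range wholly below WT. Its log2 difference was -0.39 (95% interval -0.89 to 0.12, edgeR adjusted p = 0.490). Slc25a15 was at 353, 467 and 227 CPM in WT livers and 272, 246 and 281 CPM in the N-LKO livers, which overlapped, with a log2 difference of -0.39 (edgeR adjusted p = 0.594). Thus 2 of the 8 genes, Nags and Slc25a13, had all N-LKO livers below all WT livers, as had 13.6% of all genes tested. Without WT replicate 2 all 8 log2 differences stayed negative but shrank, to -0.21 for Cps1, -0.23 for Asl, -0.12 for Slc25a15, -0.28 for Nags and -0.27 for Slc25a13, while Otc stayed at -0.45. The 8 hepatocyte markers also had a negative median log2 difference in this comparison, -0.43, and the 8 periportal markers one of -0.91, with 0 of either list called; their part in the result was not tested.

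**Figure D3:**
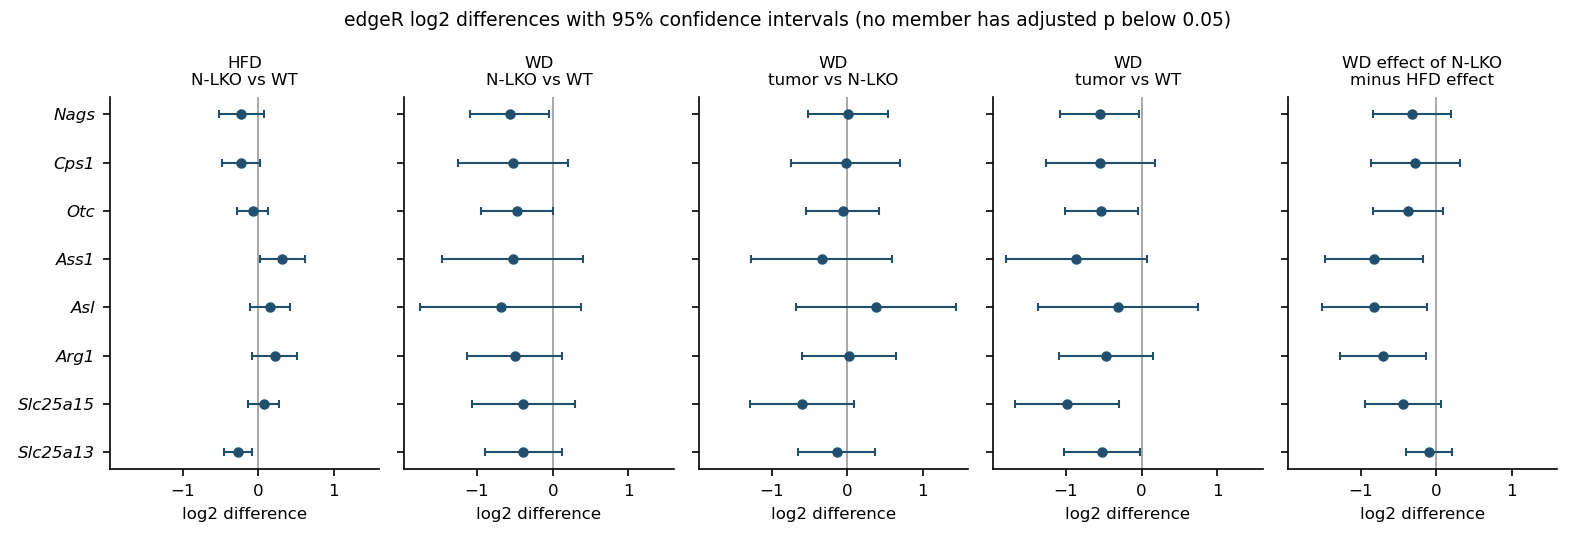
Log2 differences of the urea cycle genes with 95% confidence intervals from the edgeR fits, for N-LKO against WT liver under each diet, tumor against each WD liver group, and the N-LKO effect under WD minus that under HFD. Points left of 0 are lower in the first-named group; all 8 points lie left of 0 for N-LKO and tumor against WT under WD and in the last panel, and the WD intervals are wider than the HFD ones.

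Whether the N-LKO effect differed between the diets was tested over the 14 livers. The differences between the 2 effects were negative for all 8 genes, with a median of -0.41 on the log2 scale against 0.0048 over all genes, and edgeR called 0 of 8, against 1.62% of 15850 genes. At an unadjusted p under 0.05 there were 3, the cytosolic enzymes, beside 3171 of all 15850 genes. DESeq2 and limma-voom each called 0 members. The 8 hepatocyte markers had a median of -0.37 in this test and the 8 periportal markers one of -1.09. In both marker lists 0 of 8 were positive and edgeR called 1 lower. Their part in the members' values was not tested. The difference was -0.82 for Ass1 (95% interval -1.47 to -0.18, edgeR adjusted p = 0.147), -0.82 for Asl (95% interval -1.51 to -0.12, edgeR adjusted p = 0.181) and -0.70 for Arg1 (95% interval -1.26 to -0.13, edgeR adjusted p = 0.160). It was smallest for Slc25a13, at -0.10. Without WT WD replicate 3 the value for Ass1 was -1.07 and passed the threshold (edgeR adjusted p = 0.0417). That fit called 330 of all 16189 genes, against 257 of 15850 in the main fit. Without WT WD replicate 2 the value was -0.65 for Ass1 and -0.38 for Asl. Among the other genes of the pathway listed below, 1 passed: Agmat, which hydrolyses agmatine, an arginine product, had a difference of -0.69 (edgeR adjusted p = 0.0355). That call was lost with the replicate block (edgeR adjusted p = 0.0826) and with the length and GC offset, where the difference was -0.47 (edgeR adjusted p = 0.156). Those fits called 0 and 1 of all genes, against 257 in the main fit, so these losses are not particular to Agmat. The call was also lost in 11 of the 14 fits with 1 liver left out. It held only without WT HFD replicate 3, WT HFD replicate 4 or WT WD replicate 3. DESeq2 also called Gls2, Cebpa and Cebpb here, where it called 923 genes in all.

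Between tumors of N-LKO mice and N-LKO liver, 1 of the 8 urea cycle genes did not overlap, beside 23.1% of all genes tested. Against N-LKO liver 0 of 8 genes passed in edgeR (0.499% of 17829 genes did), and DESeq2 and limma-voom called 0. An unadjusted p under 0.05 was found for 0 members, beside 3256 of all genes. The median log2 difference was -0.04, against 0.02 over all genes. The 8 periportal markers had a median of 0.87 with 6 positive, and the 8 pericentral markers one of -1.95 with 0 positive. edgeR called 0 of either list, while DESeq2 called 3 periportal and 1 pericentral marker, beside 1021 of all genes. The part of these markers in the members' values was not tested.

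Cps1 was at 2111, 1452 and 3113 CPM in the tumors, spanning the N-LKO livers on both sides, and the log2 difference was -0.02 (95% interval -0.74 to 0.70, edgeR adjusted p = 0.984). Asl was at 101, 98.5 and 332 CPM, so that replicate 3 was above every N-LKO liver and the others were below, with a log2 difference of 0.38 (95% interval -0.68 to 1.44). Ass1 was at 271, 132 and 481 CPM and Arg1 at 515, 360.5 and 704 CPM. Tumor replicate 3 had the highest level of the 3 tumors in 6 of the 8 genes, and tumor replicate 2 the lowest in 6.

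Otc did not follow that order, at 169, 174.9 and 130.3 CPM in the tumors, with its lowest value in replicate 3. Its log2 difference against N-LKO liver was -0.06 (95% interval -0.54 to 0.42). Nags was at 19.8, 25.75 and 33.8 CPM and Slc25a13 at 219, 127 and 249 CPM, with values on both sides of the N-LKO livers. Slc25a15 alone had all 3 tumors, at 231, 103.7 and 193 CPM, below all 3 N-LKO livers, as had 11.6% of all genes tested, and its log2 difference was -0.60 (95% interval -1.28 to 0.09, edgeR adjusted p = 0.335).

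Taken singly against the mean of the N-LKO livers, tumor replicate 2 had 7 of 8 members lower, with a median log2 ratio of -0.58, and tumor replicate 3 had 6 of 8 higher, with a median of 0.36. In the same 2 tumors the pericentral markers had median log2 ratios of -4.50 and -3.83, against -0.60 in replicate 1. Oat, the pericentral ornithine aminotransferase, was at 585.5 CPM in tumor replicate 1, 38.4 CPM in replicate 2 and 33.0 CPM in replicate 3, while N-LKO livers had 884 to 926 CPM. Glul, the glutamine synthetase that takes up ammonia left by the cycle, was at 1032, 242 and 270 CPM against 1442 to 1685 CPM. Their log2 differences against N-LKO liver were -2.05 (edgeR adjusted p = 0.269) and -1.58 (edgeR adjusted p = 0.133), which did not pass. Without tumor replicate 1, edgeR called 2193 of 18285 genes tested in this comparison in place of 89, and 0 of the 8 members. In that fit Glul (log2 difference -2.59, edgeR adjusted p = 0.000203) and Oat (-4.67, edgeR adjusted p = 0.00021) did pass, as did Slc7a2, Sms and Umps, 5 genes of the lists around the cycle.

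**Figure D4:**
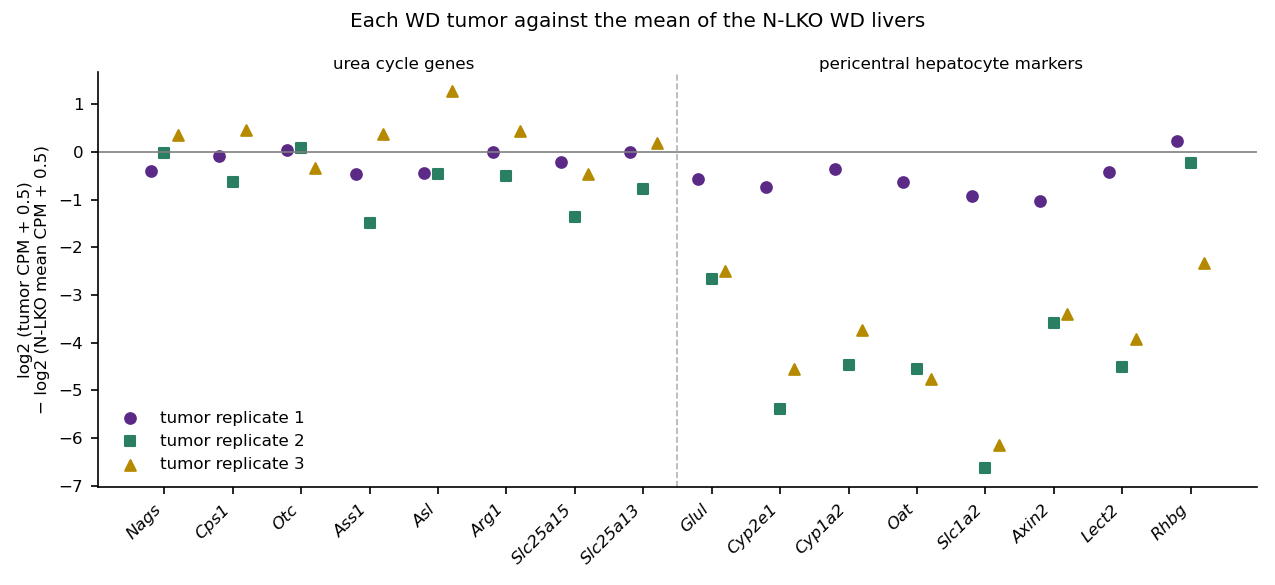
Each WD tumor against the mean of the 3 N-LKO WD livers, as the log2 ratio of CPM with a pseudocount of 0.5, for the 8 urea cycle genes (left) and 8 pericentral hepatocyte markers (right). Each symbol is 1 tumor; members lie between -1.49 and 1.28, while 7 of the markers in replicates 2 and 3 lie between -6.64 and -2.51, with Rhbg at -0.23 in replicate 2 and -2.34 in replicate 3.

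Against WT liver all 8 genes had lower means in tumors, with a median log2 difference of -0.54 against 0.04 over all genes. edgeR called 0 of 8, against 14.9% of 17829 genes. At an unadjusted p under 0.05 there were 4 (Slc25a15, Otc, Nags and Slc25a13), beside 5803 of all 17829 genes. DESeq2 called 1 member and limma-voom 0. These values share the WT livers with the N-LKO comparison, so WT replicate 2 bears on both.

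Slc25a15 came closest, with 231, 103.7 and 193 CPM in tumors and 353, 467 and 227 CPM in WT livers, where WT replicate 3 lay just below the highest tumor. Its log2 difference was -0.99 (95% interval -1.68 to -0.30, edgeR adjusted p = 0.0573). It passed with DESeq2 (adjusted p = 0.0103, where 20.5% of genes passed) and with the length and GC offset (edgeR adjusted p = 0.0310, where 16.9% passed). It also passed without WT replicate 3 (edgeR adjusted p = 0.0430, beside 1531 of all 18496 genes). The same held without tumor replicate 1 (edgeR adjusted p = 0.0290, beside 3819 of all 18285 genes). Without WT replicate 2 the log2 difference was -0.73 (edgeR adjusted p = 0.196).

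Otc and Slc25a13 were the 2 genes with all tumors below all WT livers, as were 16.4% of all genes tested. The log2 difference was -0.53 for Otc (95% interval -1.01 to -0.05, edgeR adjusted p = 0.120), and -0.82 with the length and GC offset (edgeR adjusted p = 0.0317). For Slc25a13 it was -0.53 (95% interval -1.03 to -0.02, edgeR adjusted p = 0.138). Ass1 had -0.87 (95% interval -1.80 to 0.07, edgeR adjusted p = 0.182). Without tumor replicate 3 the Ass1 value was -1.42 and passed (edgeR adjusted p = 0.0465), beside 2226 of all 18284 genes. The rest were -0.56 for Nags, -0.54 for Cps1, -0.47 for Arg1 and -0.31 for Asl, with edgeR adjusted p from 0.133 to 0.687. Without WT replicate 2 they were -0.27 for Nags, -0.24 for Cps1, -0.32 for Arg1 and 0.15 for Asl.

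Genes around the cycle were read from 3 lists: 14 of nitrogen supply and ammonia handling, 11 that use cycle intermediates and 9 regulators. Glul, Oat and Rhbg are also among the pericentral markers. In edgeR 0 of them passed for N-LKO against WT under either diet or for tumor against N-LKO. For N-LKO against WT under WD, 0 of all genes passed. At an unadjusted p under 0.05 there were 4 under HFD, 9 for N-LKO against WT under WD and 8 for tumor against N-LKO. Over all genes there were 3053 of 13460, 2212 of 17829 and 3256 of 17829. DESeq2 called 2, 0 and 2 genes of the lists, beside 999, 99 and 1021 of all genes. The counts of 0 were not firm. Without N-LKO replicate 2 under HFD, edgeR called 2 (Glul higher, Hnf4a lower), beside 580 of all 13623 genes. Without tumor replicate 1 it called 5 for tumor against N-LKO (Glul, Slc7a2, Oat and Sms lower, Umps higher), beside 2193 of all 18285 genes. Against WT liver, tumors had 4 of 14, 1 of 11 and 4 of 9 lower and 1 of 11 higher, beside 14.9% of all genes. In the same comparison 2 of 8 hepatocyte and 2 of 8 periportal markers were called lower, 2 of 6 cholangiocyte markers higher, 2 of 5 T and B cell markers tested higher with a list median of 1.13, 2 of 5 endothelial markers higher and 1 lower, and 1 of 6 macrophage markers lower. The pericentral markers had a median of -2.25 with 0 of 8 called, and 0 of 6 stellate markers were called; the part of these cell types in the lists' values was not tested.

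Of the nitrogen list, Slc7a2, a carrier that takes up arginine and other cationic amino acids, fell from 872, 1606 and 747 CPM in WT livers to 577, 130 and 322 CPM in tumors, with no overlap. Its log2 difference was -1.65 (95% interval -2.68 to -0.61, edgeR adjusted p = 0.0416). Car5a, the mitochondrial carbonic anhydrase that gives Cps1 its bicarbonate, fell from 32.2, 30.6 and 23.7 to 12.5, 4.05 and 15.1 CPM, by 1.45 on the log2 scale (edgeR adjusted p = 0.0496). Got1, the cytosolic aspartate aminotransferase, fell by 1.43 (edgeR adjusted p = 0.0327), and the glutamine carrier Slc38a3 fell by 1.21 (edgeR adjusted p = 0.0353). Glud1, which frees ammonia from glutamate, had a log2 difference of -0.84 (edgeR adjusted p = 0.105), and Gls2, the liver glutaminase, one of -0.62 (edgeR adjusted p = 0.278).

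Among users of cycle intermediates, Agmat fell by 0.91 on the log2 scale, from 71.1, 79.5 and 59.5 to 34.3, 29.7 and 48.2 CPM (edgeR adjusted p = 0.0160). Umps, which completes pyrimidine synthesis in the cytosol, rose by 0.87, from 26.6, 19.6 and 22.7 to 31.2, 40.0 and 54.8 CPM (edgeR adjusted p = 0.0240). Cad, which begins pyrimidine synthesis with a carbamoyl phosphate step of its own, had a log2 difference of 0.79 (edgeR adjusted p = 0.0572), and did not pass.

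Of the regulators, Cebpb fell by 1.22 (edgeR adjusted p = 0.00863), from 87.0, 97.5 and 73.5 to 44.04, 31.4 and 35.3 CPM. Klf15, a glucocorticoid-responsive factor of amino acid breakdown, fell by 0.85 (edgeR adjusted p = 0.0310), Hnf4a, a master factor of hepatocyte identity, by 0.75 (edgeR adjusted p = 0.0266) and Creb3l3 by 0.57 (edgeR adjusted p = 0.0493). Cebpa had -0.64 (edgeR adjusted p = 0.0814). In N-LKO against the same WT livers the regulators had a median log2 difference of -0.52, with 0 of 9 positive. In tumors the median was -0.57, with 1 of 9 positive. The N-LKO values were -0.73 for Cebpb, -0.62 for Hnf4a, -0.57 for Klf15 and -0.52 for Creb3l3, and 0 of all genes passed there. The counts for tumor against WT rested on single libraries. Without WT replicate 2, 0 of the nitrogen list, 0 of the users and 1 regulator passed, beside 569 of all 18518 genes. Without tumor replicate 1 the nitrogen list had 6 lower and the users 5 lower and 2 higher, beside 3819 of all 18285 genes called. The nitrogen list also had 0 without WT replicate 1, N-LKO replicate 1 or N-LKO replicate 3, 1 without tumor replicate 2, and 2 without WT replicate 3 or tumor replicate 3. The regulators had 1 without N-LKO replicate 3 or tumor replicate 2 and 2 without WT replicate 1. Over all genes, the fits named in the last 2 sentences called 1218 to 2226, against 2653 in the main fit. With only the tumor and WT libraries in the fit, 0, 0 and 1 of the 3 lists passed, beside 705 of all 17094 genes. The number called thus moved over the whole table and not only in these lists.

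**Figure D5:**
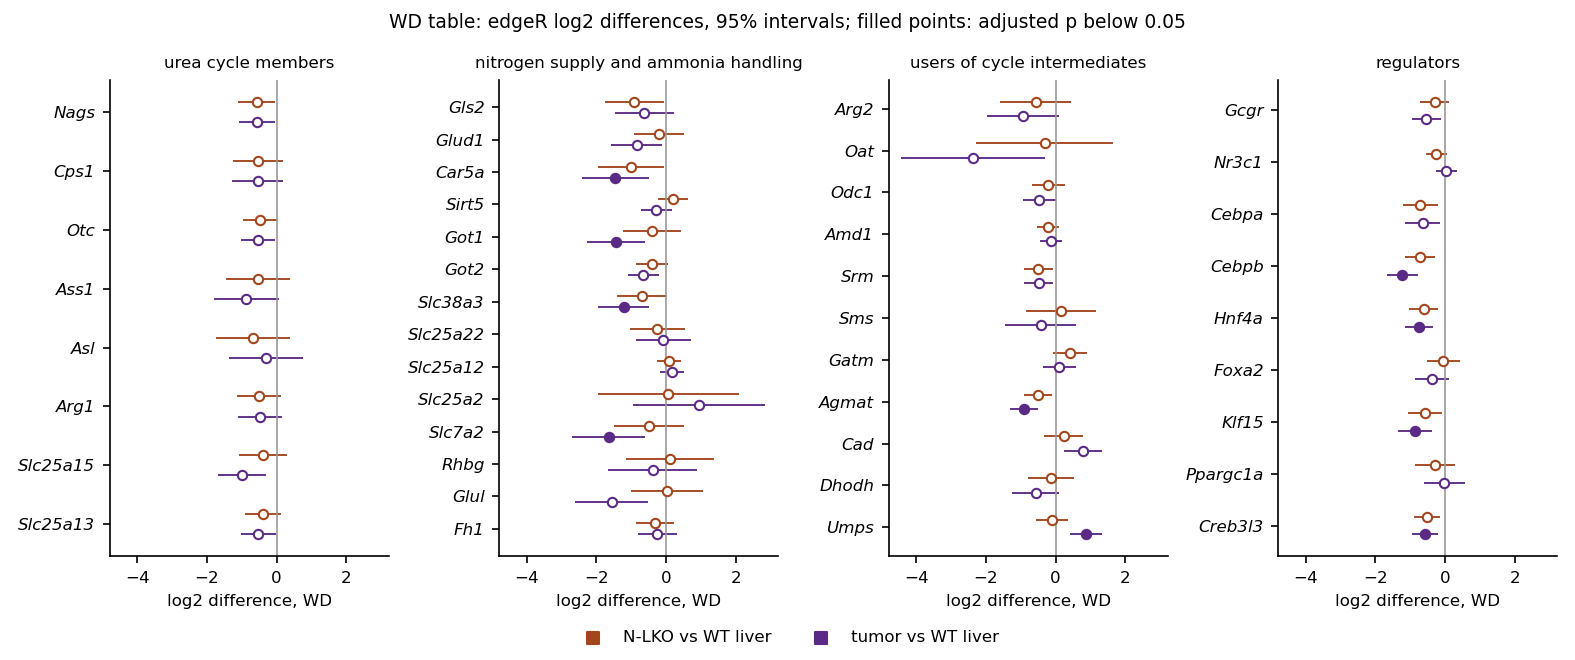
Log2 differences in the WD table with 95% confidence intervals for the urea cycle genes and the 3 lists around them, for N-LKO liver (brown) and tumor (purple) against the same WT livers. Filled points have an edgeR adjusted p under 0.05; there are 10, all for tumor against WT, and 9 of them lie below 0.

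Across libraries the members varied together more closely in the WD table than in the HFD table. Over the 9 WD libraries Pearson's r of log2 CPM was 0.96 for Cps1 with Arg1, 0.93 for Cps1 with Ass1 and 0.93 for Ass1 with Arg1, whereas Otc had 0.21 to 0.58 with the other 7 genes. Over the 8 HFD libraries r was 0.76 for Ass1 with Asl, 0.76 for Asl with Arg1 and -0.06 for Cps1 with Ass1, and Ass1 and Slc25a13 had -0.50. The points share library scaling and hold different groups, so these values describe the libraries only. The genes most like the members in both tables, by the mean of the 2 correlations with the members' mean standardised log2 CPM among 8453 genes, were Polr2m (0.891), Ndrg2 (0.869), Gstz1 (0.861), Mat1a (0.858) and Tmem86b (0.856).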

How the data were processed

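RNA-seq of 17 mouse liver and tumor samples was used, grouped by the sample titles. The authors removed ribosomal RNA, sequenced single reads and deposited, per diet, a table of estimated counts per gene, which were neither scaled nor pooled. The processing notes name Partek, STAR and mm9, and the study's methods TopHat2, while the deposited positions match GENCODE M21 on GRCm38, from which positions and lengths were taken. Which aligner made the counts is not settled here. A read can be divided between features, and only Cps1 had whole counts in every library. Counts of Nags (overlapped by antisense Gm11586) and Ass1 lay furthest from whole numbers (within 0.15 in 6 and 8 of 17 libraries), and are uncertain. The other members lay mostly within 0.15 of a whole number. Libraries of a group differed beyond sampling noise (chi-square per degree of freedom 7.99 to 103). Counts were rounded, and the edgeR quasi-likelihood F test (version 4.0.16, R 4.3.3) was applied after TMM scaling (filterByExpr, Benjamini-Hochberg over all genes tested, threshold 0.05). HFD libraries were fitted alone, the 9 WD libraries together, and the interaction over 14 livers. CPM use TMM-scaled library sizes; standard errors and 95% intervals are approximate, from the size of the log2 difference and the root of F. The study's own test, cuffdiff, needs reads. Alternatives used DESeq2 1.42.0 size factors and Wald test, upper-quartile scaling, other filters, limma-voom (limma 3.58.1), a replicate block, a length and GC offset, only the groups compared, and each library left out. The script steps were tested on simulated data. Members, lists and alternatives were chosen with earlier results of these data known. Named genes are the 8 members, 34 genes of 3 lists, Nus1 as a check, marker genes, and the 5 genes with the highest likeness among those with a mean of at least 5 CPM in both tables. P-values measure the spread between the deposited replicates, which under WD was estimated over livers and tumors together.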

Additional observations from a re-analysis of the deposited data

How the results depend on the processing

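The number of members called stayed at 0 under most alternatives. It was 1 with the DESeq2 Wald test under HFD, and for tumor against WT it was 1 with the DESeq2 Wald test and 2 with the length and GC offset. With single libraries left out it was 0 to 1 for tumor against WT and 0 to 1 for the interaction of genotype and diet. Of the 40 values of single members, all kept their direction under the other alternatives except Nags for tumor against N-LKO, which was -0.0209 with limma-voom, -0.0117 with the replicate block and -0.0663 with the length and GC offset. With single libraries left out, 10 of the 40 values changed sign in at least 1 fit. For tumor against N-LKO the ranges were -0.34 to 0.21 for Cps1, -0.24 to 0.0899 for Otc, -0.89 to 0.00847 for Ass1, -0.45 to 0.66 for Asl, -0.24 to 0.23 for Arg1, -0.20 to 0.18 for Nags and -0.34 to 0.0910 for Slc25a13. For tumor against WT, Asl ran from -1.14 to 0.15, and in the interaction Cps1 ran from -0.49 to 0.0147 and Slc25a13 from -0.18 to 0.00034. The cause was not tested. For the replicate block, same-numbered libraries had correlations of deviations of -0.12 to 0.12, so the numbers were not taken to pair the samples. With the replicate block 0 members were called in each comparison. For the interaction and for N-LKO against WT under WD it called 0 of all genes, so those counts say nothing particular of the members. Without the 10 most abundant features, the members' mean share of counts was 0.506% and 0.527% for WT and N-LKO under HFD and 0.632% and 0.513% under WD. The WD 95% interval of Asl in N-LKO against WT liver ran from -1.75 to 0.37 on the log2 scale, and the common biological coefficient of variation was 0.243 for the WD fit and 0.149 for the HFD fit. Upper-quartile scaling moved the median of all genes for tumor against WT from 0.04 to 0.11.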
